A study of Homo sapiens with 42 samples.

Results

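The human genome holds its largest set of C2H2 zinc finger genes on chromosome 19, and 162 of them were active enough in MV4;11 leukaemia cells to be followed through the loss or block of ENL. They are the protein-coding genes of chromosome 19 whose GENCODE symbol starts with ZNF and whose level averaged 5 CPM or more over 6 DMSO libraries of MV4;11 cells. CPM here means counts per 1000000, after TMM scaling of each library. The 162 were chosen from 249 such genes at any level, among 58721 genes in the tables. MS41 is a degrader of ENL, the chromatin reader encoded by MLLT1. MV4;11 is a myeloid line with an MLL-AF4 fusion, and was treated with MS41, MS41N or PFI-6, each at 100 nM, or with DMSO, for 6 or 24 h, in 3 libraries per compound and time. SEMK2, a B-cell precursor line with the same kind of fusion, was treated with 100 nM MS41 or DMSO in 3 libraries each, at a time that the labels do not tie to the samples. MV4;11 cells carrying a CRISPR guide, ENL guide 1, ENL guide 2 or a control guide gave 2 libraries per guide, and MV4;11 cells recovered from mice given MS41 or vehicle gave 3 libraries per arm, for which dose and time are not given in the labels. PFI-6 blocks the YEATS domains of ENL and its relative AF9. What MS41N serves for is not said in the labels, whose protocol text has MS47N in its place.

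Most of these genes encode a KRAB domain followed by an array of C2H2 fingers. The fingers read DNA, often inside transposable elements, and the KRAB domain recruits TRIM28 and, through it, the histone methyltransferase SETDB1, heterochromatin proteins and histone deacetylases. The genes lie in tandem clusters that arose by duplication. ENL binds acetylated histones through its YEATS domain and recruits the super elongation complex, which releases paused RNA polymerase at the genes that leukaemias with MLL fusions depend on.

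The label was borne out by the protein sequences of the annotation: 161 of the 162 members held at least 1 C2H2 finger pattern, with a median of 12 per protein, up to 31 in ZNF91. The exception, ZNF738, has a product of 137 residues in the longest annotated protein. A KRAB pattern was found in 142 members and not in 20. By start position, with a gap of over 1000000 bases between neighbours as the break, the members fell into 17 runs. The 5 largest hold 43 genes (ZNF579 to ZNF324), 25 (ZNF175 to ZNF331), 20 (ZNF565 to ZNF573), 18 (ZNF576 to ZNF296) and 17 (ZNF101 to ZNF43). Their transcripts are poor in GC, with a median of 42.4% over the longest transcript, against 47.6% for 9331 protein-coding genes at 5 CPM or more and 60.3% for the 528 other coding genes of chromosome 19 at that level. Members without a KRAB pattern had a median of 58.7%. Because library composition can move low-GC and high-GC genes apart, every comparison below was repeated after a GC trend had been removed from each library.

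The median level was 17.4 CPM in MV4;11 DMSO libraries, against 42.9 CPM for the coding genes at 5 CPM or more, so most members were modestly expressed. ZNF146, a protein of fingers only, stood highest at 452 CPM, followed by ZNF480 at 155, ZNF317 at 103, ZNF562 at 102 and ZNF121 at 98.3. Per kilobase of exon the order of the top 3 was the same: ZNF146 at 117 CPM, ZNF480 at 32.8 and ZNF317 at 25.4. Just inside the minimum were ZNF544 at 5.17 CPM, ZNF784 at 5.20 and ZNF554 at 5.23. Just outside it were ZNF524 at 4.94, ZNF222 at 4.59 and ZNF726 at 4.49. Of the 87 genes left out, 33 were below 0.1 CPM and 2 had no counts in any of the libraries used.

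The sequence upstream of RefSeq gene starts, on GRCh38.p14, was found for 147 members, as the 250 bases before the start. Each motif was looked for on both strands. CCGGAA, letters that ETS-family factors bind, was present in 45.6% of member promoters, against 19.6% of all 14896 promoters and 29.1% of the 7577 promoters of coding genes at 5 CPM or more. CCAAT, the letters that NF-Y binds, was present in 49.7% of member promoters, against 34.5% of all and 36.0% of those at level. The E-box CACGTG was present in 4.76%, against 7.89% and 9.71%. The TATAAA box was present in 2.72%, against 8.97% and 4.75%, and GGGCGG, letters of SP-family factors, in 57.8%, against 56.9% and 68.6%. AAGATGG, letters of YY1, was in 6.80%, against 3.37% and 3.79%. CGCATGCG, letters of NRF1, was in 1.36%, against 2.51% and 3.96%. These matches describe letters only, and promoter GC also differed, with a median of 59.6% for members and 64.8% for coding genes at level.

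Promoters of the run from ZNF101 to ZNF43 are shown because many of its genes were called with MS41 (below). All 14 with a sequence held CCAAT, and the 9 with CCGGAA had it within the last 40 bases. The layout was not confined to that run: CCAAT was in 4 of 4 promoters from ZNF724 to ZNF254, where all 3 with CCGGAA had it in the last 40 bases. CCAAT was in 5 of 5 promoters from ZNF554 to ZNF77 and 8 of 9 from ZNF627 to ZNF791. There 0 and 2 promoters had CCGGAA in the last 40 bases. From ZNF579 to ZNF324, 26 of 40 held CCAAT and 17 had CCGGAA in the last 40 bases. CCAAT was in 1 of 7 promoters from ZNF558 to ZNF562 and 3 of 20 from ZNF565 to ZNF573. It was in 4 of 16 from ZNF576 to ZNF296 and 5 of 21 from ZNF175 to ZNF331. Members of the run are given first, 5′ to 3′ on the gene's strand, then ZNF584 and ZNF587B from the run at the end of the chromosome, which had large decreases at 24 h. Capitals mark the motifs just named on either strand, and matches can overlap, as do those of the SP and NF-Y letters in ZNF584. The RefSeq starts of ZNF43, ZNF584 and ZNF587B lie inside the longer GENCODE genes.
ZNF85, chr19:20923001-20923250, + strand: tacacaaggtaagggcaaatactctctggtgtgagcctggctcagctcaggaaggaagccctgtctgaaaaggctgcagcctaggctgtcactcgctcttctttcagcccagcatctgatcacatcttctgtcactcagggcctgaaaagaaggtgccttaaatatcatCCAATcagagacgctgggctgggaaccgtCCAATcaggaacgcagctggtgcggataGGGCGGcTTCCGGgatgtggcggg
ZNF43, chr19:21836183-21836432, - strand: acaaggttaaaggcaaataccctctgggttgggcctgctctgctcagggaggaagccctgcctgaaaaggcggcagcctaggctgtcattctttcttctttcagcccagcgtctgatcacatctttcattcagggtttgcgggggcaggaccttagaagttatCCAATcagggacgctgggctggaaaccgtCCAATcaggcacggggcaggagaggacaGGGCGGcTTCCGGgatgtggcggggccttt
ZNF100, chr19:21767580-21767829, - strand: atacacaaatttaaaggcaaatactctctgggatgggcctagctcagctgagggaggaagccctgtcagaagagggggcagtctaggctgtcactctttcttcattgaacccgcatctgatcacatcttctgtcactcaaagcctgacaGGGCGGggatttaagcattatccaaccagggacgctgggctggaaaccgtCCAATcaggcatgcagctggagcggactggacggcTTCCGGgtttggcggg
ZNF93, chr19:19900696-19900945, + strand: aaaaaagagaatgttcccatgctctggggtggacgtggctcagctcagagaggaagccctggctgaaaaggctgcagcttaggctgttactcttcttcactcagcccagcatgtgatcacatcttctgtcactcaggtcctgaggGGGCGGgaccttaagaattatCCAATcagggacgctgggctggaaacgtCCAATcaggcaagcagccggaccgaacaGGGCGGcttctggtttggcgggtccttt
ZNF584, chr19:58408399-58408648, + strand: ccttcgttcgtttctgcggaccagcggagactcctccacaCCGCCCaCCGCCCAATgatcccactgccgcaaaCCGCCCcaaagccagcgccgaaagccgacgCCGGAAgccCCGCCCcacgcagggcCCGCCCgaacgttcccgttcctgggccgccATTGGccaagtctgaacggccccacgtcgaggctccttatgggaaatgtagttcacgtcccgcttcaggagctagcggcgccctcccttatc
ZNF587B, chr19:57830049-57830298, + strand: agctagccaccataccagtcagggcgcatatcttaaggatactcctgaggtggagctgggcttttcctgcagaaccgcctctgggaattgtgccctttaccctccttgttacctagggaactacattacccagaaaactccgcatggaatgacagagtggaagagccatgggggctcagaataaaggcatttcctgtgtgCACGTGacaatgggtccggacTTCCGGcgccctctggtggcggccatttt
ZNF85, ZNF43 and ZNF100 carry the NF-Y letters and, closer to the start, TTCCGG, the ETS letters as read on the other strand. ZNF93 lacks the ETS letters as spelled here.

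Libraries held 102345811 to 156479711 counts in the compound experiment and 155911682 to 230637548 counts for SEMK2 cells. Those with guides held 77216662 to 87813453 counts, and those from mice 99485164 to 126740852 counts. RNA of MLLT1, the gene that the ENL guides target, was at 181 and 190 CPM with guide 1 and 123 and 127 CPM with guide 2. It was at 223 and 250 CPM with the control guide, so part of the RNA remained. ENL protein was not measured here, and RNA level does not show how much of it was left. The degrader acts on the protein. MLLT1 RNA was also lower with MS41 in MV4;11 cells, at an edgeR log2 fold change of -0.16 at 6 h (adjusted p = 6.47e-05) and -0.25 at 24 h (adjusted p = 2.54e-09). Both calls were kept with the GC trend removed. With PFI-6 at 24 h it was at -0.16 (adjusted p = 0.000384), a call that was lost with the GC trend removed. It was not called with MS41N, in SEMK2 or in vivo. Myeloid markers were present in every MV4;11 table (7 of 8 at 1 CPM or more), and B-precursor markers in SEMK2 (7 of 8), where 6 of the 8 myeloid markers also passed 1 CPM, FLT3 highest at 1914 CPM. Summed over the list, myeloid markers spanned 1015 to 3458 CPM across the MV4;11 compound libraries, and their part in the results was not tested. Erythroid markers summed to at most 0.129 CPM in any library. The labels do not say that replicates are separate cultures or animals, so p-values measure a spread that may be partly technical. In these bulk samples, fewer cells of a kind and less RNA per cell cannot be told apart.

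MS41 for 24 h shifted the members mostly downward, by small amounts. Of 162 members, 67 fell and 25 rose at an edgeR adjusted p below 0.05, and none changed 2-fold. Those are 41.4% and 15.4% of the members. Over all 22711 genes tested, 22.9% were called lower and 21.4% higher, and over the coding genes at 5 CPM or more 43.7% were called lower and 28.9% higher. The share of members that fell was thus near that of coding genes with the same minimum level, whose median level is higher, and the share that rose was below theirs; neither difference was tested. The median log2 fold change of the members was -0.09, against -0.06 for those coding genes and 0.02 for all genes tested. Summed over the members, the level was 4191 to 4237 CPM in the MS41 libraries, against 4520 to 4592 CPM in DMSO, with no overlap. The highest members weigh most in this sum. As a share of raw counts, without TMM scaling, it was 0.4191% to 0.4328% with MS41, against 0.4485% to 0.4488% in DMSO.

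**Figure D1:**
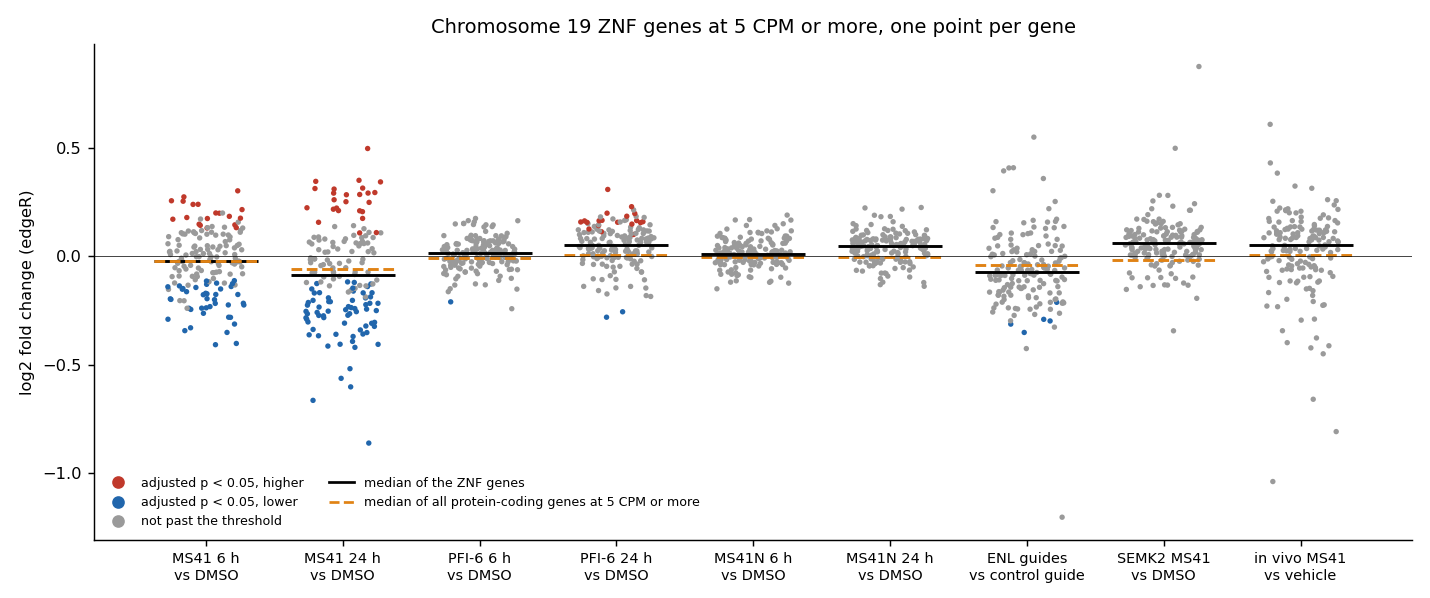
Log2 fold change of each member (y axis, one point per gene) in 9 comparisons (x axis), coloured by edgeR call, with the median of the members as a solid line and that of coding genes at 5 CPM or more as a dashed line. Calls are dense with MS41 in MV4;11 cells, where 67 members fell and 25 rose at 24 h, and sparse or absent elsewhere.

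ZNF584 was the member with the largest decrease. It was at 11.2, 12.1 and 11.5 CPM in the MS41 libraries at 24 h, against 21.4, 21.3 and 20.6 CPM in DMSO, a log2 fold change of -0.86 (SE 0.06, adjusted p = 3.17e-17). The groups were far apart, and the DMSO libraries differed from each other by under 1 CPM. ZNF480, the member second in level, was at 95.8, 95.4 and 95.4 CPM with MS41, against 152, 153 and 150 CPM with DMSO (-0.67, SE 0.03, adjusted p = 9.06e-26). The 3 MS41 libraries differed from each other by under 1 CPM, and the SE was the smallest of the 162 members.

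Other large decreases spanned the chromosome. ZNF587B was at 22.3, 22.4 and 23.3 CPM with MS41 and at 33.0, 34.5 and 36.0 CPM with DMSO (-0.60, adjusted p = 1.94e-16). It shares 12% of its 50-base stretches with another gene, most with ZNF814. ZNF486 was at 4.81, 4.58 and 4.596 CPM, against 6.95, 6.67 and 7.06 (-0.56, adjusted p = 2.13e-07), and ZNF114 was at 6.74, 6.75 and 7.999 CPM, against 10.8, 9.70 and 10.3 (-0.52, adjusted p = 2.11e-07). In none of these genes did the groups overlap. ZNF283 followed at 22.3, 21.1 and 20.5 CPM with MS41, against 27.98, 29.8 and 27.8 CPM with DMSO (-0.42, adjusted p = 1.92e-10). The highest member, ZNF146, was also lower, at 369, 379 and 363 CPM against 463, 465 and 444 CPM (-0.30, adjusted p = 1.12e-13). It shares 6.38% of its exon bases with ZNF565, which was lower too (-0.35), and counts could be split between them because the strand used in counting is not stated.

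The increases were smaller. ZNF211 led them at 19.04, 19.3 and 19.6 CPM with MS41 for 24 h, against 13.9, 13.3 and 13.8 CPM with DMSO (0.50, SE 0.06, adjusted p = 4.17e-10). ZNF230 was at 29.3, 30.2 and 30.1 CPM, against 23.4, 23.4 and 23.5 (0.35, adjusted p = 1.95e-09). ZNF555 (0.35), ZNF671 (0.34), a gene often silenced by methylation in tumours, ZNF175 (0.31) and ZNF554 (0.31) made up the rest of the 6 largest. All 6 had groups that did not overlap, but the ZNF554 call was lost without DMSO replicate 3 or MS41 replicate 2. ZNF554 lies near the CPM minimum, at 5.95, 7.11 and 5.78 CPM with MS41, against 5.30, 5.32 and 4.56 CPM with DMSO.

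**Figure D2:**
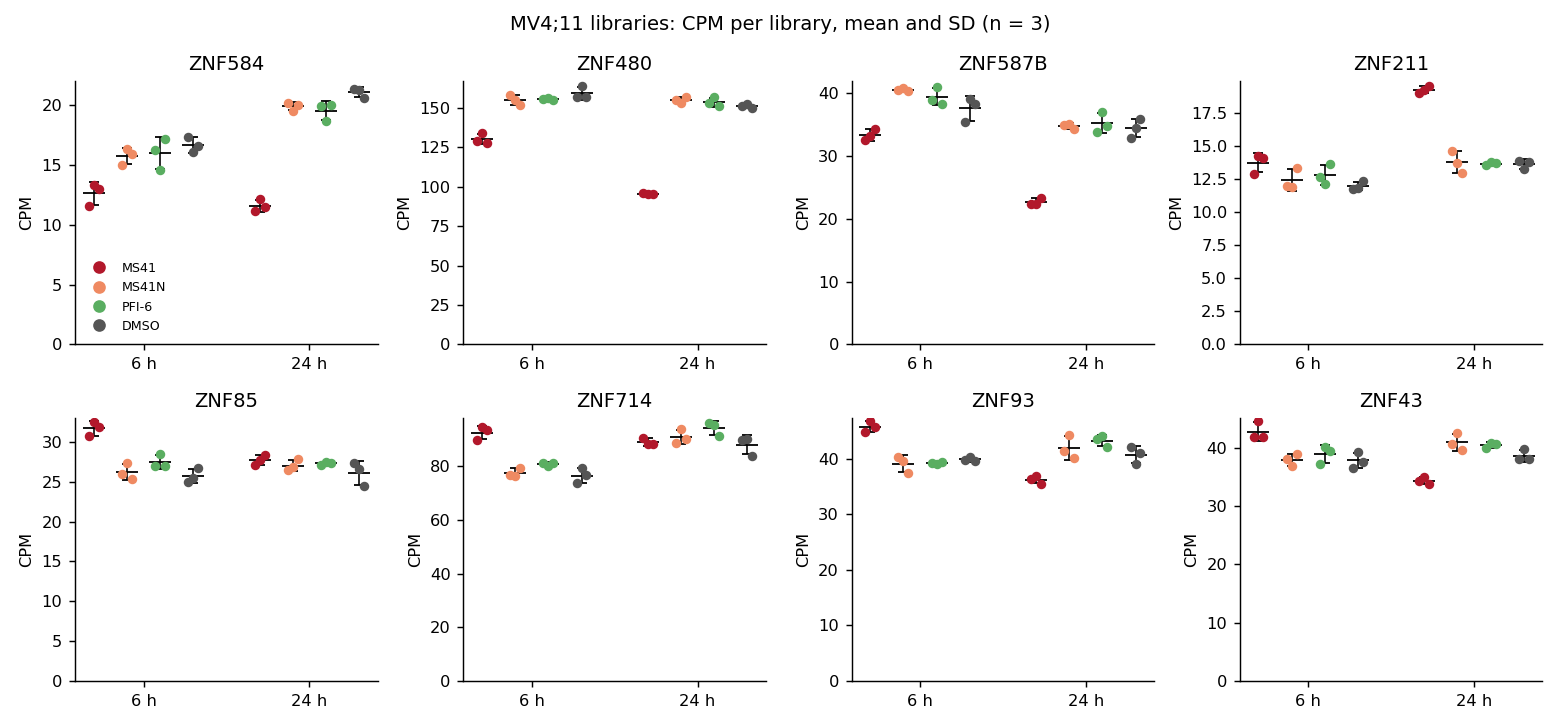
CPM of 8 members (y axes, from 0) in each MV4;11 compound library at 6 and 24 h (x axes), with the mean and SD of 3 libraries. ZNF584, ZNF480 and ZNF587B lie lowest with MS41 at 24 h and ZNF211 highest, while ZNF85, ZNF714, ZNF93 and ZNF43 lie highest with MS41 at 6 h only.

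After the GC trend had been removed from each library, 66 of the 67 members lower at 24 h and 20 of the 25 higher ones were still called. The counts were then 73 lower and 23 higher, against 23.7% lower and 21.4% higher of all genes tested, which are not matched for level. The log2 fold changes of the members hardly followed GC at 24 h, with a Spearman rho across 162 genes of -0.05. They followed it at 6 h, with a rho of -0.33.

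The 142 members with a KRAB pattern gave 60 lower and 24 higher at 24 h (median -0.08), and the 20 without gave 7 lower and 1 higher (median -0.11). Without the GC trend these were 66 and 19 for KRAB members and 7 and 4 for the others. The 177 ZNF genes at 5 CPM or more on other chromosomes gave 63 lower and 36 higher (median -0.06). The 528 other coding genes of chromosome 19 gave 292 lower and 100 higher (median -0.15), and 242 and 149 with the GC trend removed. The decreases were thus seen in zinc finger genes on and off chromosome 19 and in their neighbours, and no difference between these sets was tested.

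At 6 h, 41 members had fallen and 19 had risen with MS41, 25.3% and 11.7% of the 162. All genes tested gave 13.8% lower and 12.2% higher, and coding genes at 5 CPM or more 28.2% lower and 19.4% higher. The median was -0.02, equal to that of these coding genes. Once the GC trend was removed, 40 of the 41 and 16 of the 19 kept their call, and the counts came to 45 lower and 16 higher (all genes, 14.8% lower and 12.6% higher). Largest was the decrease of ZNF283, at 19.1, 21.2 and 21.0 CPM with MS41, against 27.8, 27.0 and 26.5 CPM with DMSO (-0.41, adjusted p = 2.01e-09). ZNF584 was at 11.6, 13.3 and 13.03 CPM, against 17.4, 16.1 and 16.6 (-0.40, adjusted p = 3.07e-07). The groups did not overlap in either gene. ZNF627 (-0.35), ZNF565 (-0.34), ZNF749 (-0.33) and ZNF583 (-0.31) were next.

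The increases at 6 h were led by 3 genes of the run from ZNF101 to ZNF43. ZNF85 was at 30.7, 32.5 and 31.9 CPM with MS41, against 24.98, 25.4 and 26.7 CPM with DMSO (0.30, adjusted p = 4e-07). ZNF714 was at 89.7, 94.5 and 93.3 CPM, against 73.7, 79.2 and 76.6 (0.27, adjusted p = 2.32e-09), and ZNF100 at 73.8, 79.4 and 73.4 CPM, against 60.7, 62.9 and 66.1 (0.26, adjusted p = 5.75e-08). Every MS41 library lay above every DMSO library in each of these genes. ZNF530 (0.25), ZNF443 (0.24) and ZNF865 (0.24) completed the 6 largest. ZNF443 shares 39.7% of its 50-base stretches with another gene, most with ZNF799, and its call was lost without DMSO replicate 3 or MS41 replicate 1. The ZNF530 call was lost without MS41 replicate 2, and that of ZNF865 without DMSO replicate 2.

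The 2 time points shared most decreases and few increases. Of the 41 members lower at 6 h, 36 were lower at 24 h, which is 36 of the 67 lower at 24 h. Of the 19 higher at 6 h, 5 were higher at 24 h (ZNF230, ZNF175, ZNF772, ZNF211 and ZNF776), against 25 in all at that time. Of coding genes at level, 82.2% of those lower at 6 h and 73.6% of those higher were called the same way at 24 h. ZNF93 and ZNF43 were called in opposite directions. The times have their own DMSO libraries. Across 162 members, which are not independent replicates, the Spearman rho of the log2 fold changes was 0.58 (Pearson 0.58), and across 9331 coding genes at level it was 0.70 (0.72).

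The difference between the times was tested as an interaction in the same fit. The MS41 effect was lower at 24 h than at 6 h in 38 members and higher in 12, against 14.5% and 11.9% of all genes tested. All genes tested are not matched to the members for level, and no difference between these shares was tested. ZNF486 had the largest negative difference: with MS41 it was at 4.81, 4.58 and 4.596 CPM at 24 h and at 4.47, 5.39 and 5.596 CPM at 6 h, against 6.95, 6.67 and 7.06 CPM with DMSO at 24 h and 4.85, 4.68 and 5.02 CPM with DMSO at 6 h. The interaction was -0.65 (SE 0.12, adjusted p = 2.5e-05). The DMSO level was higher at 24 h than at 6 h, and the MS41 level was not. ZNF114 with MS41 was at 6.74, 6.75 and 7.999 CPM at 24 h and at 5.69, 5.95 and 5.48 CPM at 6 h, against 10.8, 9.70 and 10.3 CPM with DMSO at 24 h and 6.13, 5.87 and 6.09 CPM with DMSO at 6 h, and its interaction was -0.44 (adjusted p = 0.00211). ZNF584 (-0.46), ZNF587B (-0.43) and ZNF480 (-0.37) were lower at both times, and further below DMSO at 24 h. On the other side ZNF581 (0.33), ZNF671 (0.30) and ZNF211 (0.30) had the largest positive differences.

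The run from ZNF101 to ZNF43, 17 genes at positions 19668796 to 21852125 of GRCh38, was singled out after its values had been seen, so its counts are a description. At 6 h, 8 of the 17 were called higher with MS41 and 0 lower, and 16 log2 fold changes were positive (median 0.17). At 24 h, 0 were called higher and 6 lower (median -0.07). Coding genes at level gave 19.4% higher and 28.2% lower at 6 h, and 28.9% and 43.7% at 24 h. The difference between the times was negative in all 17, at a median of -0.24, and called in 9. ZNF93, a repressor of LINE elements, was at 44.7, 46.8 and 45.7 CPM with MS41 at 6 h, against 39.7, 40.3 and 39.5 CPM with DMSO. At 24 h it was at 36.3, 36.9 and 35.5 CPM with MS41, against 42.1, 39.1 and 40.9 CPM with DMSO. The MS41 libraries thus lay wholly above DMSO at 6 h (0.20, adjusted p = 4.8e-05) and wholly below it at 24 h (-0.17, adjusted p = 0.000231). ZNF43 did likewise, at 41.8, 44.7 and 41.9 CPM with MS41 at 6 h against 36.6, 39.3 and 37.6 CPM with DMSO, and at 34.4, 35.0 and 33.9 CPM with MS41 at 24 h against 38.1, 39.9 and 38.1 CPM with DMSO.

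The run is low in GC, with a median of 37.5%. With the GC trend removed, 7 were called higher and 1 lower at 6 h, 9 lower at 24 h, and 11 had a lower effect at 24 h. The neighbouring run of 4 genes (ZNF724, ZNF91, ZNF675 and ZNF254), of a median of 36.7% GC, also had a lower effect at 24 h in 4 of 4. In ZNF91, which represses SVA elements and has the most fingers of the members, the log2 fold change was 0.00 at 6 h and -0.15 at 24 h (adjusted p = 0.00113). Its interaction (-0.15, adjusted p = 0.0388) was lost when any of 9 of the 12 libraries was left out. The other large runs had more lower than higher calls at 24 h: 12 lower and 4 higher of 20 from ZNF565 to ZNF573, 13 and 5 of 25 from ZNF175 to ZNF331, 13 and 6 of 43 from ZNF579 to ZNF324, and 6 and 4 of 18 from ZNF576 to ZNF296. The last of these had a median of -0.03, and of 0.02 with 9 positive and 9 negative values after removal of the GC trend. Coding genes at level gave 43.7% lower and 28.9% higher at 24 h, so more lower than higher calls were not particular to these runs. No difference between a run and these shares was tested.

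**Figure D3:**
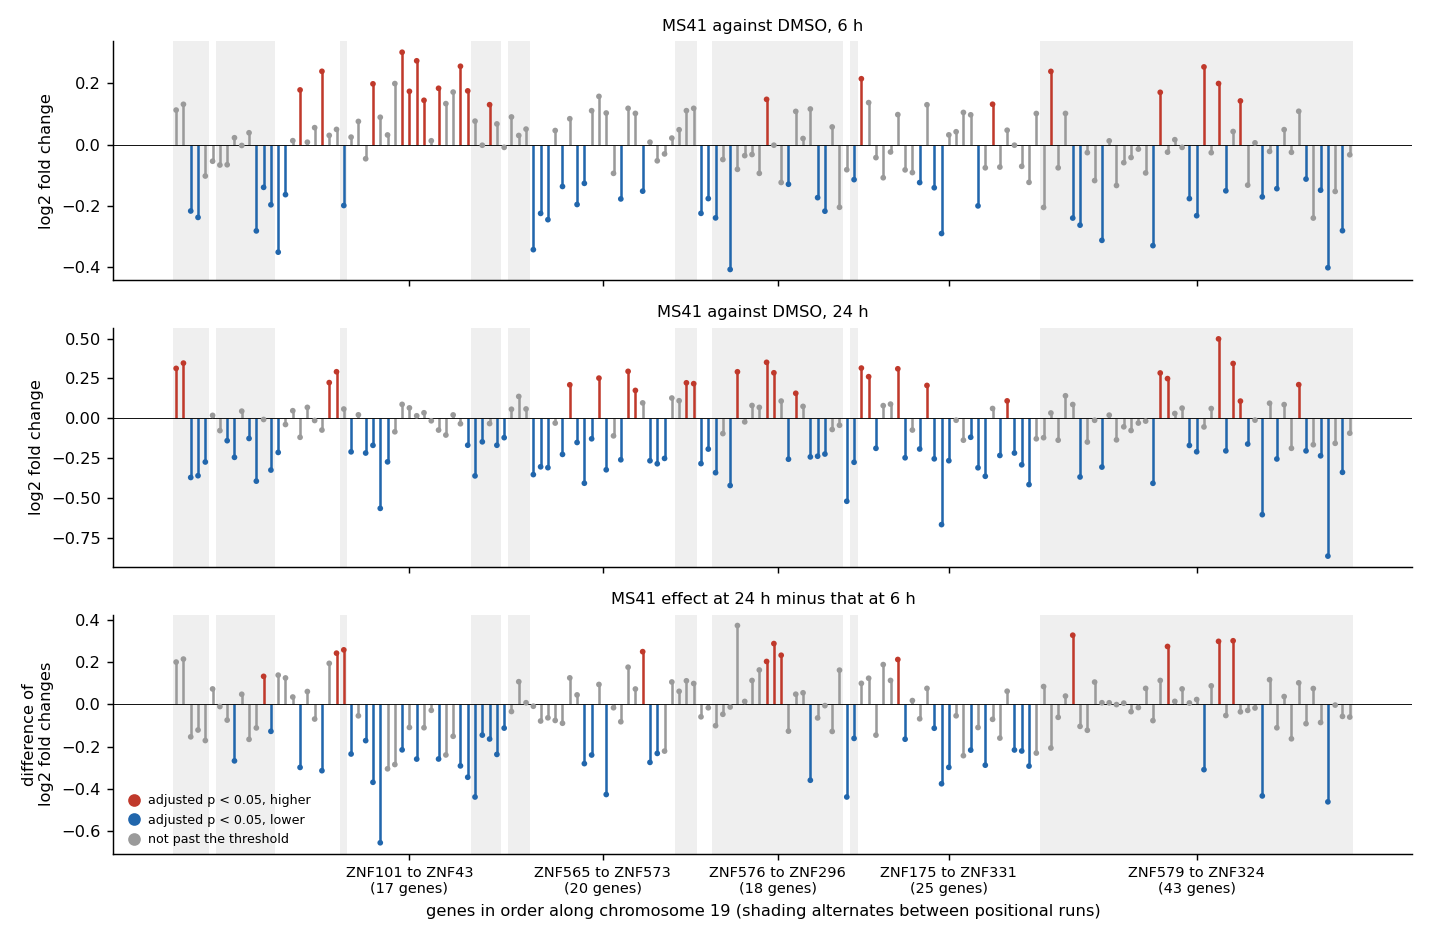
Log2 fold changes of the 162 members with MS41 at 6 h and 24 h, and the difference between the times (y axes), in gene order along chromosome 19 (x axis, not to distance), coloured by call, with shading that alternates between runs. The run from ZNF101 to ZNF43 has 8 members called higher at 6 h, none called higher at 24 h, and negative differences in all 17.

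Members with a known function were followed whatever their change, 19 of 21 listed being members. ZNF274, which brings SETDB1 to the 3′ ends of other zinc finger genes, was at 51.2, 52.8 and 52.3 CPM with MS41 at 24 h, against 58.5, 59.9 and 61.6 CPM with DMSO (-0.20, adjusted p = 7.35e-07). ZNF473, a factor of histone pre-mRNA 3′ processing, was also lower (-0.28, adjusted p = 1.46e-08). ZNF587, which targets endogenous retroviruses, was at -0.25 (adjusted p = 4.54e-07), and its near copy ZNF417 at 0.09 (adjusted p = 0.219); these 2 genes share many 50-base stretches. ZNF224, a repressor of aldolase A, was higher (0.29, adjusted p = 0.000388), but 48.8% of its exon bases overlap AC021092.1. ZNF649 was lower (-0.19, adjusted p = 0.0329), a call that was lost without DMSO replicate 2, MS41 replicate 1 or MS41 replicate 2. No call was made at 24 h for ZNF558 (-0.08), ZNF568 (-0.11), ZNF350 (0.09), which partners BRCA1, the imprinted ZNF331 (-0.13), ZNF444 (-0.15), ZNF296 (-0.04, but 0.21 after removal of the GC trend), ZNF675 (-0.03) or ZNF85 (0.09). After removal of the GC trend ZNF675 was called lower, as were all 4 members of its run.

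PFI-6 left nearly all members without a call. At 6 h, 1 member was lower and 0 higher (all genes tested, 1.39% lower and 0.66% higher). It was ZNF574, at 17.2, 15.02 and 15.98 CPM with PFI-6, against 19.6, 18.8 and 17.4 CPM with DMSO (-0.21, adjusted p = 0.0464). The groups were separated by little, and the call was lost without DMSO replicate 1 or 2, without PFI-6 replicate 2 or 3, and with the GC trend removed. At an unadjusted p below 0.05 there were 19 of 162 members, against 3260 of 22711 genes. DESeq2 called 3 members and 806 genes.

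At 24 h, 19 members were higher and 2 lower with PFI-6, against 5.57% and 6.78% of all genes tested and 12.3% and 14.7% of coding genes at level. The log2 fold changes followed GC closely: Spearman rho was -0.49 across the 162 members and -0.79 across 9331 coding genes. In each range of GC with at least 20 members, members and coding genes had similar medians, 0.12 and 0.11 below 38% GC, 0.08 and 0.07 from 38% to 42%, 0.04 and 0.04 from 42% to 46%, and 0.03 and 0.01 from 46% to 50%. With the GC trend removed, 1 of the 19 higher calls and 0 of the 2 lower calls were left, and 2 other members were called lower, against 0.806% higher and 1.73% lower of all genes. The one left was ZNF606, at 10.7, 11.9 and 10.3 CPM with PFI-6, against 8.86, 8.59 and 9.07 CPM with DMSO (0.31, adjusted p = 0.00122). ZNF606 overlaps AC008969.1 over 10.4% of its exon bases. The count of 19 was 12 without DMSO replicate 1, 9 without DMSO replicate 3, 10 without PFI-6 replicate 1 and 7 without PFI-6 replicate 2.

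ZNF577 (0.23), ZNF701 (0.20), ZNF780A (0.18), ZNF91 (0.17) and ZNF700 (0.16) followed ZNF606 in size, and the 2 lower genes were the GC-rich ZNF296 (-0.28) and ZNF581 (-0.26). None of these 7 calls was kept with the GC trend removed.

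**Figure D4:**
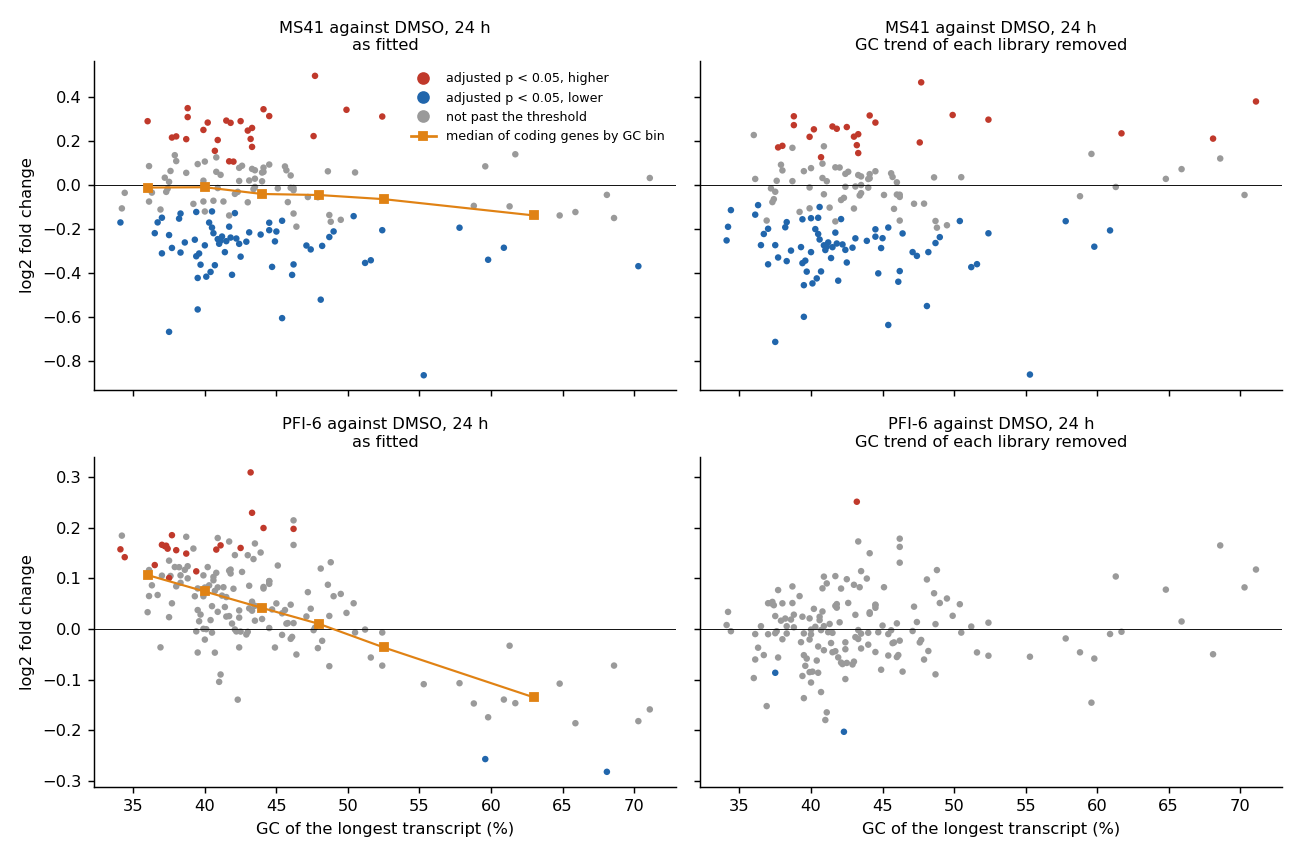
Log2 fold change of each member (y axes) against the GC of its longest transcript (x axes) for MS41 and PFI-6 at 24 h, as fitted on the left and with the GC trend of each library removed on the right; squares join the medians of coding genes by GC range. With MS41, 66 of 67 lower and 20 of 25 higher calls were kept on the right, while the PFI-6 values slope down with GC on the left and 1 of 19 higher calls was kept.

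MS41N gave no member called at either time by edgeR. At 6 h, 0.0264% of all genes were higher and 0.295% lower, and at 24 h 0.0176% were called in each direction. At an unadjusted p below 0.05 there were 8 of 162 members at 6 h and 22 at 24 h, against 1833 and 2158 of 22711 genes. DESeq2 called 0 and 1 members, against 163 and 78 genes. All 22 members with an unadjusted p below 0.05 at 24 h were higher, and the median there was 0.05. The log2 fold changes followed GC with a Spearman rho of -0.32, and the median was 0.02 with the GC trend removed. The median half-width of the 95% interval of a member was 0.11, so changes of the size seen with MS41 in ZNF584 or ZNF480 would have been outside it. ZNF584 was at 20.2, 19.5 and 20.1 CPM with MS41N at 24 h, against 21.4, 21.3 and 20.6 CPM with DMSO (-0.08, adjusted p = 0.709), with every MS41N library just below every DMSO library.

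At matched dose and time, 3 pairs of compounds were compared, each adjusted over all genes. MS41 against MS41N gave 40 members lower and 14 higher at 6 h (all genes, 11.7% and 10.1%). At 24 h it gave 75 lower and 16 higher (all genes, 21.9% and 20.5%). MS41 against PFI-6 at 24 h gave 79 lower and 17 higher (all genes, 21.6% and 20.7%), and 72 and 21 with the GC trend removed. All genes tested are not matched to the members for level, and no difference from these shares was tested. For MS41 against DMSO at 24 h, 43.7% of coding genes at level were lower, against 22.9% of all genes. Against MS41N at 24 h, ZNF584 was at -0.78, ZNF480 at -0.70, ZNF587B at -0.62 and ZNF211 at 0.48. Against PFI-6 these genes were at -0.75, -0.69, -0.63 and 0.49. In all 4 genes the MS41 libraries lay beyond every MS41N and PFI-6 library of 24 h. The higher counts fell to 10 and 11 without MS41 replicate 1.

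With the ENL guides, 5 of 161 members tested were lower and 0 higher, taking the mean of both guides against the control guide. All genes tested gave 4.98% lower and 5.32% higher, and coding genes at level 8.3% and 6.53%. The members' median was -0.07, against -0.04 for those coding genes, and 111 of 161 were negative. At an unadjusted p below 0.05 there were 24 of 161 members, against 4556 of 17984 genes. DESeq2 called 7 members and 2249 genes. ZNF584 was at 16.8 and 14.5 CPM with guide 1 and 18.8 and 16.2 CPM with guide 2, against 21.3 and 21.0 CPM with the control guide (-0.35, SE 0.09, adjusted p = 0.0273). ZNF480 was at 65.1 and 62.3 CPM with guide 1 and 66.6 and 59.8 CPM with guide 2, against 78.6 and 77.5 CPM (-0.30, SE 0.06, adjusted p = 0.00925). All 4 libraries with an ENL guide lay below both control libraries in these genes.

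The others were ZNF576 (-0.31, adjusted p = 0.04), ZNF787 (-0.29, adjusted p = 0.00729) and ZNF574 (-0.21, adjusted p = 0.046). ZNF787 was at 65.7, 62.8, 69.7 and 65.6 CPM in the ENL guide libraries, against 80.1 and 81.3 CPM in the control libraries, without overlap. With the GC trend removed, ZNF584, ZNF480 and ZNF576 kept their call and ZNF787 (-0.11) and ZNF574 (-0.20) did not. With 1 library left out, 1 to 4 members were called lower. ZNF480 was lost only without guide 2 replicate 2, and ZNF584 without guide 1 replicate 2, guide 2 replicate 2 or either control library. Among the members, replicate number marked a difference that the guide groups shared: 93 of 161 were higher in replicate 1 than in replicate 2 in all 3 groups, and 5 were lower in all 3. Over all genes, deviations of same-numbered guide and control guide libraries had an r of 0.238 for guide 1 and 0.021 for guide 2. A term for replicate number brought the lower count to 12, and each of the 5 genes was called in that fit too. In the main fit, without that term, guide 1 gave 3 lower and guide 2 gave 1, with 0 higher for each.

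All 5 genes lower with the ENL guides were also lower with MS41, at 6 h and at 24 h. They are 5 of the 67 members lower at 24 h. Of coding genes at level that were lower with the guides, 95.2% were lower with MS41 at 24 h. Across the 161 members, the log2 fold changes with the guides and with MS41 at 24 h, which share no library, had a Spearman rho of 0.56 (Pearson 0.47), and 0.56 (0.47) with the GC trend removed. Across 9324 coding genes at level they were 0.79 (0.81) and 0.78 (0.81). Genes are not independent replicates, and the members share base composition. ZNF211, the largest increase with MS41, was at 15.3, 12.9, 14.1 and 14.0 CPM with ENL guides, against 14.4 and 11.3 CPM with the control guide, with overlapping groups (0.13, adjusted p = 0.506). ZNF486 had 0 counts in every guide library and could not be tested there.

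**Figure D5:**
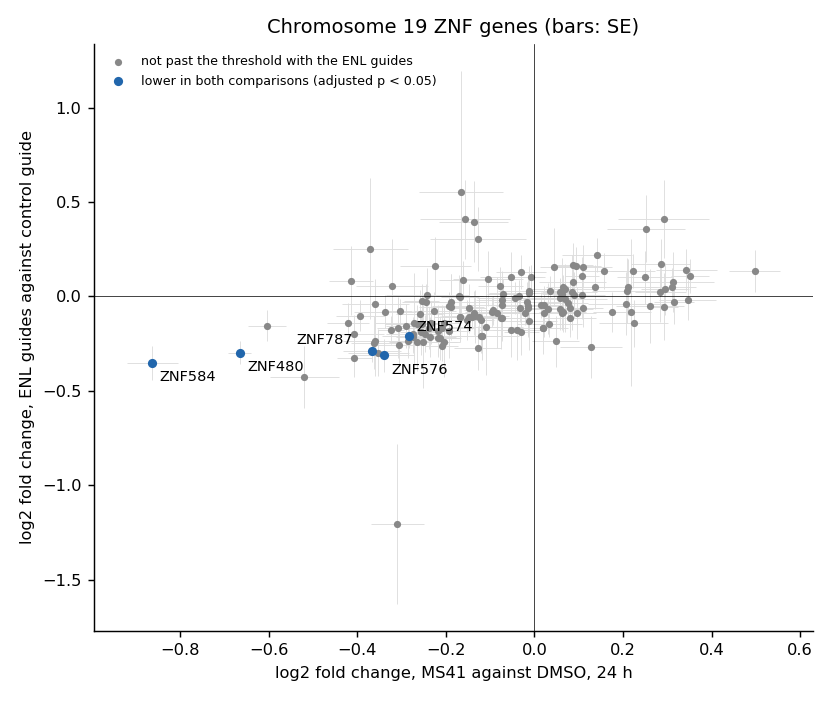
Log2 fold change with ENL guides against the control guide (y axis) and with MS41 at 24 h against DMSO (x axis) for 161 members, with SE bars. The 5 members called lower with the guides are named and lie below 0 on both axes.

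In SEMK2 cells, edgeR called no member with MS41, of 161 tested (all genes, 0.518% lower and 0.84% higher). At an unadjusted p below 0.05 there were 17 of 161 members, against 2778 of 21433 genes. DESeq2 called 3 members and 760 genes. The median was 0.06, and 125 of 161 values were positive, against a median of -0.02 for coding genes at level. ZNF584 was at 10.7, 9.12 and 9.72 CPM with MS41, against 10.7, 11.1 and 9.79 CPM with DMSO (-0.10, adjusted p = 0.67). ZNF480 was at 122, 116 and 129 CPM with MS41, against 123, 120 and 134 CPM (-0.03, adjusted p = 0.825). The groups overlapped in both genes. The 95% interval of a member had a median half-width of 0.16, and adjusted p-values reached 0.0874 at the lowest, in ZNF546.

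One SEMK2 library stood apart. DMSO replicate 3 had 230637548 counts, more than any other. Summed over the members, the MS41 libraries were at 3939 to 4131 CPM, against 4167 CPM in DMSO replicate 3 and 3777 and 3785 CPM in the other DMSO libraries. Without it 41 members were called higher and 4 lower, against 5.83% and 7.65% of all genes. Leaving it out was 1 of the 6 omissions, and the other 5 gave 0 of either. With the GC trend also removed, an alternative chosen after seeing the data, 7 were higher and 0 lower. The log2 fold changes followed GC, with a Spearman rho of -0.44 across 161 members. The part of GC in the calls made without that library was not tested further.

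In MV4;11 cells from mice, no member was called with MS41 of 160 tested (all genes, 0.0328% lower and 0.0% higher). At an unadjusted p below 0.05 there were 18 of 160 members, against 1623 of 21337 genes. DESeq2 called 0 members and 80 genes. The authors' values had been adjusted by replicate number before deposit, so the fit holds a term for it. Without that term 4 members were higher and 1 lower. ZNF584 was at 19.03, 17.4 and 18.2 CPM with MS41, against 17.98, 19.6 and 18.8 CPM with vehicle (-0.05, adjusted p = 0.931). ZNF480 was at 55, 54.6 and 61.2 CPM, against 57.4, 57.7 and 51.5 CPM (0.04, adjusted p = 0.937). Both genes had overlapping groups, though the adjustment had tied same-numbered libraries of the arms, so these do not vary separately. The median was 0.05 and 0.02 with the GC trend removed, and the log2 fold changes followed GC with a Spearman rho of -0.42. The half-width of the 95% interval had a median of 0.24, against 0.11 in the MV4;11 compound fit.

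The members' levels differed between tables, which were normalized separately. Their median was 17.5 CPM in SEMK2 with DMSO, 10.9 CPM with the control guide and 12.1 CPM in vivo with vehicle, against 17.4 CPM in the MV4;11 compound DMSO libraries that chose them. Below 1 CPM were 4 members in SEMK2 (ZNF556, ZNF404, ZNF285 and ZNF229), 6 with the control guide and 10 in vivo. ZNF480 was at 120 to 134 CPM in SEMK2 DMSO libraries, 77.5 and 78.6 CPM with the control guide and 51.5 to 57.7 CPM in vivo.

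The proteins through which KRAB zinc finger factors act were followed as a list of 39 genes, among them the member ZNF274. With MS41 at 24 h, 23 were lower and 13 higher, and at 6 h 13 were lower and 7 higher. Coding genes at level gave 43.7% lower and 28.9% higher at 24 h and 28.2% and 19.4% at 6 h. After removal of the GC trend the list gave 22 lower and 10 higher at 24 h and 16 and 7 at 6 h. TRIM28, the scaffold that binds the KRAB domain, was at 404 ± 15.1 CPM with MS41 at 24 h, against 494 ± 8.30 CPM with DMSO (SD, n = 3 each), a log2 fold change of -0.29 (adjusted p = 1.4e-10). CBX3, a heterochromatin protein, was at 361 ± 8.31 CPM against 489 ± 16.7 CPM (-0.44, adjusted p = 9.38e-19). HDAC2, a histone deacetylase that was also called lower at 6 h, was at -0.22. UHRF1, a reader of hemimethylated DNA that was called higher at 6 h, was at -0.38. SETDB1, the methyltransferase itself, was higher at 80.0 ± 1.54 CPM against 74.2 ± 0.177 CPM (0.11, adjusted p = 0.00128), as were its partner ATF7IP (0.14) and CBX5 (0.16).

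The list had 0 edgeR calls with MS41N at either time, in SEMK2 and in vivo; after removal of the GC trend it had 1 lower with MS41N at 6 h, and 1 lower and 1 higher in SEMK2. With PFI-6 at 24 h it had 8 lower and 6 higher, against 14.7% and 12.3% of coding genes at level, and 0 and 1 after removal of the GC trend. The ENL guides gave 2 lower (coding genes, 8.3% lower and 6.53% higher), UHRF1 (-0.45, adjusted p = 0.00148) and the methyltransferase SUV39H2 (-0.25, adjusted p = 0.0436), and 0 higher. After removal of the GC trend 3 were lower. TRIM28 was at -0.22 with the guides (adjusted p = 0.0943). With PFI-6 at 24 h TRIM28 was at -0.17 (adjusted p = 0.00021), a call that was lost with the GC trend removed.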

How the data were processed

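Polyadenylated RNA from 42 libraries in 15 groups was measured. Per the submitters' processing notes, tools were CASAVA 1.8, HISAT2 2.1.0 and HTSeq 0.11.3 with build hg38. The deposited compound, SEMK2 and guide tables hold raw counts per gene. The deposited in vivo table also holds whole numbers, treated here like expected counts because the authors changed them before deposit in a step that no source describes. Per the labels' protocols these libraries came from a low-input kit. Pairs of same-numbered in vivo libraries had nearly equal means (median SD 0.000906, against 0.0329 to 0.0531 for the other matchings), the mark of an adjustment by replicate number, and the fit holds that term.

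All 58721 identifiers matched GENCODE release 29. Each table was fitted over all its genes with edgeR 4.0.16 (robust quasi-likelihood test, filterByExpr, TMM, R 4.3.3), with Benjamini-Hochberg adjustment over all genes tested and a threshold of 0.05; all adjusted p-values are edgeR's. The GC check removed a 5-df spline of log2 CPM on transcript GC from each library through offsets. DESeq2 1.42.0, other filters and omitted libraries were alternatives. The fit was tested on simulated data. Strand of counting is not given in the sources used here.

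Members and lists were chosen with earlier results of these data known. Genes named are, per comparison, called members with non-overlapping groups (the 6 largest each way against DMSO, control guide or vehicle, 3 for other contrasts), the known-role list, the 5 highest, the 3 on either side of the minimum and MLLT1; others were chosen after their values were seen. Same-numbered compound and SEMK2 libraries did not deviate together (r from -0.027 to 0.054).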

Additional observations from a re-analysis of the deposited data

Results flagged for a closer look

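The effect of MS41 on the members differed between 24 h and 6 h, by an interaction term in edgeR. Of 162 members, 38 had a lower effect at 24 h and 12 a higher one. Of all genes tested, which are not matched for level, 14.5% had a lower effect and 11.9% a higher one. On the log2 scale, the differences were -0.65 for ZNF486, -0.46 for ZNF584, -0.44 for ZNF114 and -0.37 for ZNF480. Among genes of the runs low in GC they were -0.37 for ZNF93, -0.34 for ZNF43, -0.21 for ZNF85, -0.16 for ZNF675 and -0.15 (-0.145) for ZNF91. ZNF473 (-0.16) and ZNF562 (-0.13) were also lower at 24 h than at 6 h. The positive differences were 0.33 for ZNF581, 0.30 (0.3005) for ZNF671, 0.30 (0.2977) for ZNF211 and 0.29 for ZNF224, the last with an overlapping gene. All 38 and all 12 calls were kept with the GC trend removed. The calls of ZNF224, ZNF473, ZNF562, ZNF581, ZNF671, ZNF675 and ZNF91 were each lost when at least 1 library was left out.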

How the results depend on the processing

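Counts of called members (higher, lower) that moved by over 1.5 times were these, and the cause was not tested unless the setting has fewer genes or samples. With DESeq2, PFI-6 at 6 h gave 1 higher and 2 lower, MS41N at 24 h 1 higher and SEMK2 3 higher. With the GC trend removed, PFI-6 at 24 h gave 1 higher, SEMK2 2 higher and the ENL guides 3 lower; with GC and length trends removed, PFI-6 gave 2 lower at 6 h and 1 higher at 24 h, and SEMK2 2 higher. With no filter on low counts, PFI-6 at 6 h gave 1 higher and 3 lower, MS41N 1 higher at each time, SEMK2 3 higher and the guides 1 higher. With only the groups compared in the fit, PFI-6 gave 2 higher and 2 lower at 6 h and 4 lower at 24 h. With members at 10 CPM or more, which are fewer genes, MS41 at 24 h gave 16 higher, PFI-6 at 24 h 1 lower and MS41 against PFI-6 11 higher. Guide 1 libraries alone gave 1 lower and guide 2 libraries alone 0. SEMK2 without DMSO replicate 3 and with the GC trend removed gave 7 higher. Among gene values called in either fit, those that changed sign were ZNF296 with MS41 at 24 h (0.21 with GC, 0.24 with GC and length removed) and ZNF480 with PFI-6 at 24 h (-0.09 in both, -0.0863 and -0.0892).

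With the replicate block, SEMK2 gave 1 higher, and the guides 1 higher and 12 lower; in vivo without the replicate block gave 4 higher and 1 lower. The labels do not say what a replicate number marks. Over all genes, the deviations of same-numbered guide and control guide libraries had an r of 0.238 for guide 1 and 0.021 for guide 2. Over 161 members, the differences of replicate 1 from replicate 2 had an r of 0.518 between guide 1 and the control guide, 0.288 between guide 2 and the control guide and 0.499 between the ENL guides. In vivo, where the adjustment mirrors the arms, r was -0.762, -0.844 and -0.842.

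Leaving out 1 library gave 15 to 19 higher and 32 to 38 lower for MS41 at 6 h, 20 to 23 and 59 to 66 at 24 h, and 10 to 13 and 27 to 40 for the difference between times. It gave 0 and 0 to 1 for PFI-6 at 6 h, 7 to 19 and 0 to 3 at 24 h, and 0 for MS41N. MS41 against MS41N gave 12 to 16 and 31 to 40 at 6 h and 10 to 18 and 68 to 70 at 24 h, and MS41 against PFI-6 11 to 16 and 71 to 78. SEMK2 gave 0 to 41 and 0 to 4, the guides 0 to 1 and 1 to 4, and in vivo 0 and 0. Gene values and medians of the members were also compared with the main fit. Of 2745 under the other settings 2675 were the same, and of 2625 with 1 library left out 2486 were. A gene was the same if it kept its side of the threshold, and its direction where called. A median was the same if it moved by less than the median SE of the members. The omissions here include the SEMK2 fit with the GC trend also removed. The median half-width of a member's 95% interval was 0.25 with the guides (2 libraries per guide) and 0.24 in vivo, where the biological coefficient of variation was 13%, against 4.77% in the compound table.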
